A study of Mus musculus with 12 samples.

Results

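The ATF4 amino acid stress programme was followed here in KH2 cells, a mouse embryonic stem (ES) cell line, as retinoic acid (RA) was added. RA is made from vitamin A, acts through nuclear receptors and drives ES cells to differentiate. The programme was taken as a list of 36 genes, ATF4 and known targets of it. It held stress factors, brakes and effectors of the response, secreted factors, serine and one-carbon enzymes, other amino acid enzymes and amino acid transporters. The 36 genes were picked by name with earlier results of these data known, so the counts below only describe them. Of these, 35 had a probe set of their own on the array, among 18193 genes that could be tested, and the proline synthesis gene Pycr1 had none. The 12 Affymetrix arrays form 4 groups of 3 replicates, lettered A, B and C: KH2 cells with no RA, and KH2 cells kept for 2, 4 or 6 h with 0.3 µM RA. All cells were grown on feeder cells, trypsinised and replated on gelatin for 30 min before RNA was taken. The RA was given in a differentiation medium of DMEM with 10% serum and NAA, and nothing in the labels says that untreated cells received that medium, so RA and the medium cannot be told apart in any comparison with no RA. The protocols also conflict on which cells were collected after replating, the adhered cells or those spun down from the medium. Whether replicates were separate cultures is not given in the sources used here, so p-values reflect only how far these samples vary, and that variation may be technical.

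ATF4 is a basic leucine zipper transcription factor made chiefly by translational control. When amino acids run short, or under other stresses, kinases phosphorylate the initiation factor eIF2, most protein synthesis slows and the Atf4 message is translated better. ATF4, paired with C/EBP family proteins, then binds C/EBP-ATF response elements near genes that import and make amino acids, charge tRNAs and slow or end the response, among them Asns, Trib3, Ddit3 and Chac1. Arrays read RNA and not protein, so the values below give message levels of ATF4 and its targets and not the activity of ATF4.

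RefSeq promoter windows (mouse build GRCm38.p6, 250 bases before to 50 after a transcript's start) were searched on both strands for the C/EBP-ATF response element, TGATGNAAN. At least 1 match lay in 11 of the 37 windows of members, from 11 of the 31 members with a window. Of all 32851 windows, 1299 held it (3.95%). The members were chosen as ATF4 and its known targets, and ATF4 binds this element. Their share is thus not independent of that choice. The CRE core TGACGTCA lay in 1 window of a member, that of Ppp1r15a, and in 1.79% of all windows. RA response elements, direct repeats spaced by 2 or by 5 bases, lay in 0.268% and 0.0974% of all windows and were not matched in a window of a member. A match is a description of letters and not of binding. Of the 10 measured members with the element, 4 were called higher at all 3 times, as were 6 of the 20 with a window and no match. Of all genes, those called higher at all 3 times lie within the 1.50% called higher at 2 h. The 4 windows below belong to those 4 members with the element. They run 5′ to 3′ along the gene, and capitals mark the element, which in all 4 lies on the opposite strand and so reads as its reverse complement. The window of Chac1 is chr2:119350992-119351291 (+ strand) with the element's first base at -194 from the start, that of Trib3 chr2:152344011-152344310 (- strand, at 13), that of Slc1a4 chr11:20332664-20332963 (- strand, at -5) and that of Atf3 chr1:191183284-191183583 (- strand, at -111).
Chac1: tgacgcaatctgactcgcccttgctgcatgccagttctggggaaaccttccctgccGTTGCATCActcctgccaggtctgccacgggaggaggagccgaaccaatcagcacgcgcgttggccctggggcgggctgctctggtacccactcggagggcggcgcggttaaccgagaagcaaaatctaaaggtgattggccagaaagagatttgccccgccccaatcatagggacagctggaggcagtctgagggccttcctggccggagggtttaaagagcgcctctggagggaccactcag
Trib3: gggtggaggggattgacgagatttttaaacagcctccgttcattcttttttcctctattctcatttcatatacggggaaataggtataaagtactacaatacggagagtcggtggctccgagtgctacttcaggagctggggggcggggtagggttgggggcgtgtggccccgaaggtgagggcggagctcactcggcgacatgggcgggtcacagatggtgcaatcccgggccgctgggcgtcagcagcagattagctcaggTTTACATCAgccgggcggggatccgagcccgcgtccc
Slc1a4: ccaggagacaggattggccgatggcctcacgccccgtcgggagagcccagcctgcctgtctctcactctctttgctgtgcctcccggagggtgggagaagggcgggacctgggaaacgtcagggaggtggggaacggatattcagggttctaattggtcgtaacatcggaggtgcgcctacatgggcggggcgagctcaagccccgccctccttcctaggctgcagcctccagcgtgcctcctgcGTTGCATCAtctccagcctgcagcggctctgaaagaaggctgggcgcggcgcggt
Atf3: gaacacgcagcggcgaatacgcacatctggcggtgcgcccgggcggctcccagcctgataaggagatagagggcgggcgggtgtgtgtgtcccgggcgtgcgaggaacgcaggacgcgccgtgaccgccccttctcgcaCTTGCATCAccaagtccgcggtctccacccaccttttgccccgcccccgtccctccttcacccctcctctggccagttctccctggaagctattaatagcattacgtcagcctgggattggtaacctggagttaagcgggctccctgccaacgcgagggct

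The other 7 members with a match are shown by the element alone, written on the strand that matches. Of these, Pycr1 was not measured, and the rest were not called at every time. Slc7a11 held the same letters at both of its 2 matches.
Asns: TGATGAAAC
Vldlr: TGATGCAAC
Pck2: TGATGTAAC
Nupr1: TGATGCAAT
Fgf21: TGATGCAAT
Pycr1: TGATGCAAT
Slc7a11: TGATGCAAA
Against no RA at 6 h, where 15.0% of all genes were called higher, 9 of the 10 measured members with the element were called higher, as were 13 of the 20 measured members with a window and no match.

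Values are the deposited log2 signal, 1 probe set a gene (the brightest), listed in the order A, B, C, and a gene was called at an adjusted p under 0.05 (limma, Benjamini-Hochberg over 18193 genes). Each difference is the later group's mean log2 signal minus the earlier one's, and its standard error (SE) comes from a fit that shares 1 estimate of the spread over the 4 groups. The 3 comparisons against no RA share the untreated arrays. Untreated replicate C stood apart: arrays of the untreated group correlated at 0.993 to 0.997 over all probe sets, and those within each RA group at 0.997 to 0.998. All 10 ES cell markers measured lay above the median of all values in every group, with a summed linear signal of 76324 to 80481 on the untreated arrays and 67207 to 69594 at 6 h. Of 26 feeder fibroblast markers, 23 to 25 lay above that median in each group, so signal of most of them was present in all groups. Their summed signals were 20969 (replicate C) to 25240 untreated, 21900 to 24483 at 2 h, 22195 to 24570 at 4 h and 19555 to 21667 at 6 h. Which cells this signal came from was not tested. The mean log2 signal of these markers was 8.53, 8.81 and 8.20 on untreated A, B and C, and 8.54 to 8.80 on the treated arrays. The part of feeder RNA in the results was not tested. In such bulk samples, fewer cells of a type and less RNA per cell cannot be told apart.

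At 2 h, 11 of the 35 members were called higher, against 1.50% of all genes, and no member was called lower by limma, against 1.19%. At an unadjusted p under 0.05, 17 members were higher and 0 lower, against 1491 higher and 1679 lower of all 18193 genes. The arrays of 18 members did not overlap between 2 h and no RA, against 22.2% of all genes. The median difference was 0.18, against 0.0043 over all genes. Without replicate A of the 2 h group 4 members remained called higher, Atf4, Atf3, Trib3 and Chac1, and without any other array 8 to 11 were called. In the fit of the compared groups alone the 2 h calls were 3, Atf3, Trib3 and Chac1.

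At 4 h, 18 members were called higher (12.8% of all genes) and 1 lower (14.1%), the glutamine carrier gene Slc38a2. No overlap with the untreated arrays was seen for 20 members, against 37.0% of all genes. The members' median difference was 0.32, against 0.0023 over all genes. At 6 h, 26 were called higher (15.0% of all genes) and none lower by limma (14.7%). An unadjusted p under 0.05 was reached by 30 members higher and 1 lower, against 3529 higher and 3581 lower of all 18193 genes. The arrays of 29 members did not overlap, against 39.0% of all genes, and the median difference was 0.54, against -0.014 over all genes. Quantile normalization, the filter on dim genes, the trended robust fit and array weights each called 1 member lower at 6 h. In the fit of the compared groups alone 13 members were called higher at 4 h and 19 at 6 h, with Ddit4 and Cebpg lost at both times, Stc2, Shmt2, Slc7a5 and the lower call of Slc38a2 lost at 4 h, and Fgf21, Aldh1l2, Aldh18a1, Cth and Slc3a2 lost at 6 h.

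**Figure D1:**
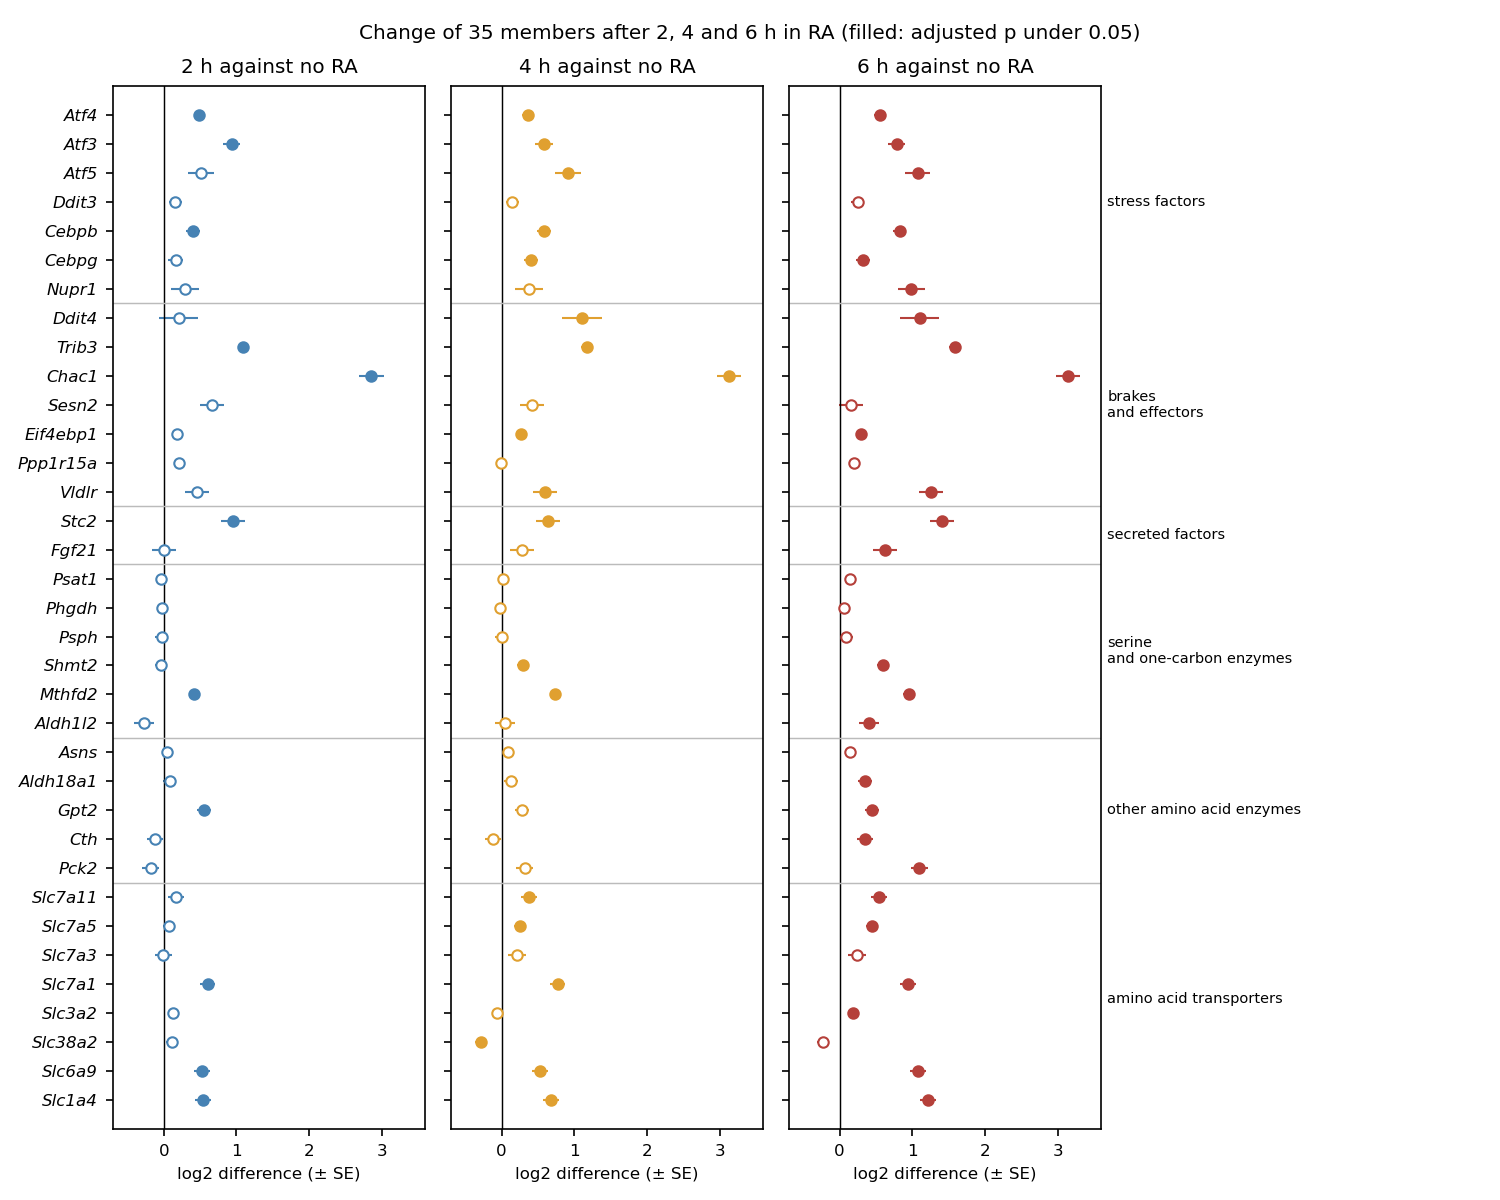
Log2 difference from no RA for the 35 measured members at 2, 4 and 6 h, grouped by role; points are differences of group means (n = 3 arrays a group), bars the SE of the fit, and filled points passed an adjusted p under 0.05. Chac1 lies farthest right at every time (2.86, 3.12 and 3.14), 11, 18 and 26 members are filled to the right of 0, and Slc38a2 at 4 h is filled to the left (-0.29).

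Of the 7 stress factors, 3 were called higher at 2 h, 5 at 4 h and 6 at 6 h. The message of Atf4 itself read 12.47, 12.68 and 12.46 untreated, 12.97, 13.06 and 13.04 at 2 h, 12.82, 12.91 and 12.96 at 4 h, and 13.04, 13.04 and 13.18 at 6 h. Every treated array lay above every untreated one, and the 4 h arrays lay under all 2 h and 6 h arrays. Neither step was called (-0.13 from 2 to 4 h and 0.19 from 4 to 6 h, adjusted p = 0.251 and 0.295). Atf4 rose by 0.49 at 2 h, 0.36 at 4 h and 0.55 at 6 h (SE 0.073), a fold of 1.40, 1.28 and 1.46 (adjusted p = 0.00416, 0.00348 and 0.000179). In the fit of the compared groups alone the 2 h difference missed the threshold (adjusted p = 0.0562). Of the 3 Atf4 probe sets, 2 were called higher at each time. The dimmest, under the median of all values, gave 0.48, 0.33 and 0.34 and was not called (adjusted p = 0.0655, 0.0724 and 0.0606 over all probe sets).

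Atf3, a stress-induced bZIP repressor and target of ATF4, read 8.64, 9.09 and 8.67 untreated, 9.73, 9.70 and 9.77 at 2 h, 9.45, 9.44 and 9.27 at 4 h and 9.56, 9.43 and 9.78 at 6 h. The 2 h arrays were all above the 4 h arrays, and all 9 treated arrays were above the untreated ones. Atf3 rose by 0.93 at 2 h, 0.58 at 4 h and 0.79 at 6 h (SE 0.12), with adjusted p = 0.00113, 0.0032 and 0.000391. Between 2 and 4 h it fell by 0.35 (adjusted p = 0.0482), a call lost without any 1 of the 6 arrays (adjusted p up to 0.152) and with the replicate block (adjusted p = 0.0724).

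Cebpb encodes a partner of ATF4 and read 9.27, 9.61 and 9.31 untreated, 9.85, 9.80 and 9.75 at 2 h, 10.04, 9.95 and 9.95 at 4 h and 10.11, 10.18 and 10.38 at 6 h. The groups did not overlap at any pair of times, and the means went up from each time to the next. The rises against no RA were 0.41, 0.59 and 0.82 (SE 0.095, adjusted p = 0.0445, 0.000796 and 6.63e-05). With 1 array left out the 2 h call was kept without untreated replicate B and was lost without any 1 of the other 5 arrays (adjusted p up to 0.161) and with the replicate block (adjusted p = 0.0726). From 2 to 6 h Cebpb rose by 0.42 (adjusted p = 0.00548).

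Atf5, an ATF4-related factor that is itself under translational control, read 9.38, 9.33 and 8.57 untreated, 9.57, 9.55 and 9.71 at 2 h, 10.11, 10.01 and 9.91 at 4 h and 10.20, 9.97 and 10.32 at 6 h. Untreated replicate C was the low array, and no treated array overlapped the untreated ones. Atf5 rose by 0.92 at 4 h and 1.07 at 6 h (SE 0.18, adjusted p = 0.00241 and 0.000726), and differed by 0.51 at 2 h (adjusted p = 0.158). Without untreated replicate C the differences were 0.25 at 2 h (adjusted p = 0.208), 0.66 at 4 h (adjusted p = 0.000664) and 0.81 at 6 h (adjusted p = 0.000133).

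Cebpg, another C/EBP partner of ATF4, rose by 0.40 at 4 h and 0.32 at 6 h (SE 0.10, adjusted p = 0.0108 and 0.0305), and the 6 h call was lost without untreated replicate A, untreated B, 6 h B or 6 h C (adjusted p = 0.115, 0.0896, 0.0845 and 0.0877) and with the mean of the probe sets (0.19, adjusted p = 0.0836), which gave 0.25 at 4 h (adjusted p = 0.0271). Nupr1, a small stress-induced chromatin protein, read 9.00, 9.07 and 9.73 untreated and 10.13, 10.00 and 10.63 at 6 h. Replicate C was the highest array in both groups. Nupr1 rose by 0.99 at 6 h (SE 0.19, adjusted p = 0.00204), and at 4 h it passed the test without untreated replicate C (0.61, adjusted p = 0.0122) and with array weights (0.54, adjusted p = 0.0185). Ddit3, which encodes the death-associated factor CHOP, differed by 0.16, 0.15 and 0.25 and passed at no time (adjusted p = 0.391, 0.269 and 0.0548). Its untreated replicate C read 8.78 against 8.46 and 8.53 in A and B, and without it the difference passed at 4 h (0.24, adjusted p = 0.033) and 6 h (0.34, adjusted p = 0.00477). With array weights Ddit3 also passed at both times (adjusted p = 0.0485 and 0.0111), and with the dim filter or the trended robust fit at 6 h (adjusted p = 0.0354 and 0.0446). Its other probe set, under the median of all values, went the other way (-0.22, -0.43 and -0.29) and passed at no time.

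**Figure D2:**
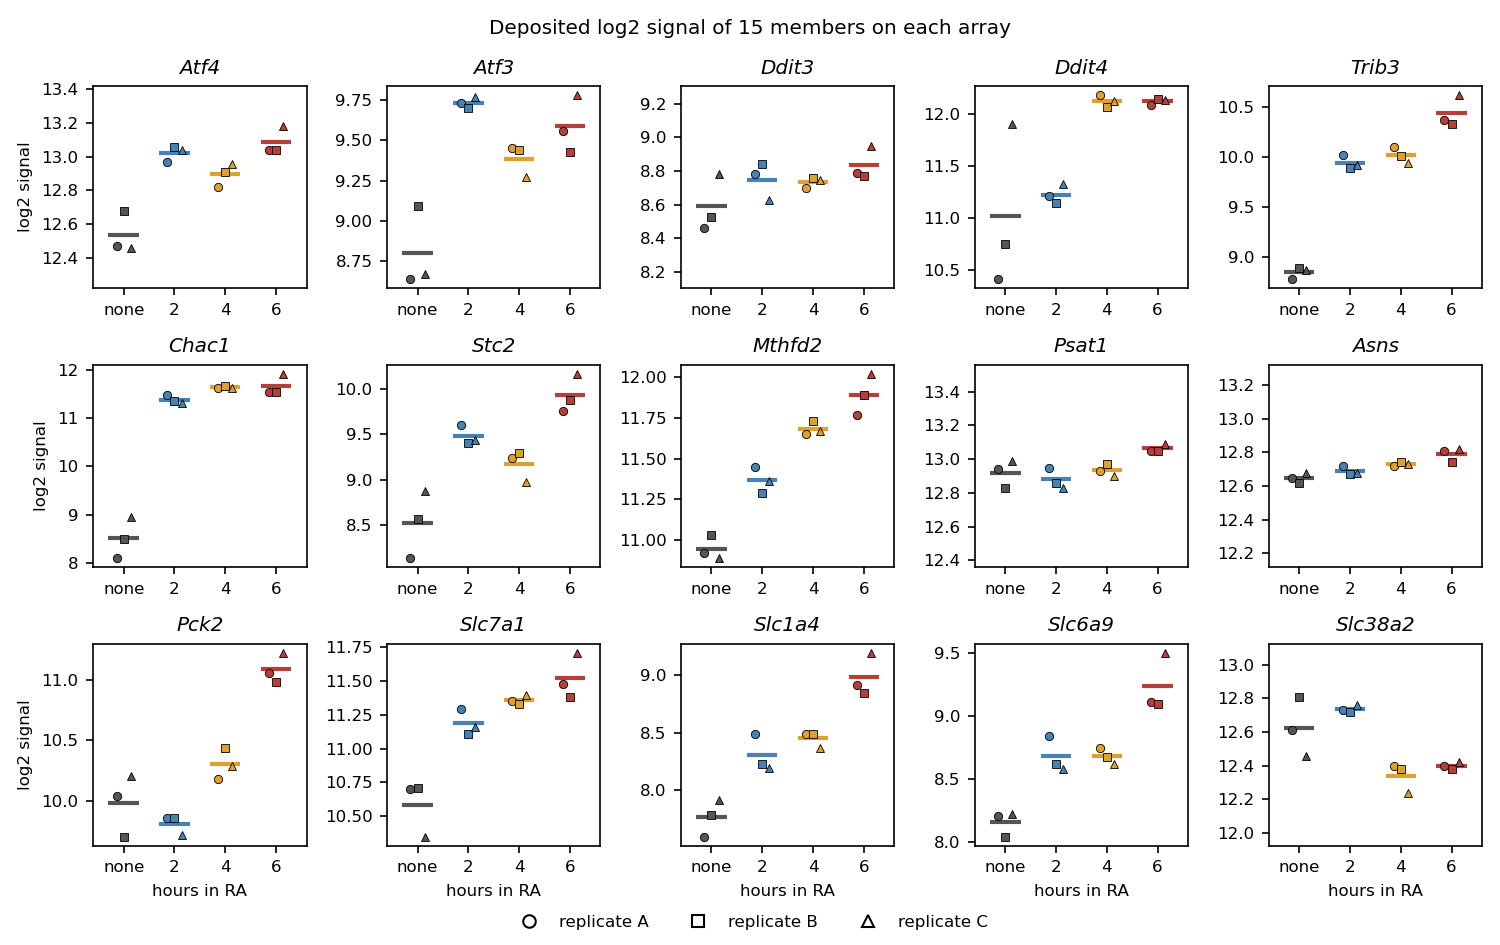
Deposited log2 signal of 15 members on each of the 12 arrays, by hours in RA; points are arrays (symbol by replicate letter), lines group means (n = 3), and the scale differs between panels. Chac1 moves from 8.11 to 8.95 untreated to 11.30 or more on every treated array, Asns and Psat1 stay within a narrow span, and untreated replicate C of Ddit4 (11.90) lies apart from A and B.

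Among the 7 brakes and effectors, 2 were called higher at 2 h and 5 at 4 h and at 6 h. Chac1, which encodes an enzyme that degrades glutathione, read 8.11, 8.50 and 8.95 untreated, 11.47, 11.35 and 11.30 at 2 h, 11.63, 11.67 and 11.63 at 4 h and 11.54, 11.53 and 11.91 at 6 h. Every treated array was far above every untreated one, and the spread of the untreated arrays (SD 0.42) was wider than that of the 2 h arrays (SD 0.085). The rise was 7.24-fold at 2 h, 8.72-fold at 4 h and 8.82-fold at 6 h (adjusted p = 1.89e-06, 4.74e-07 and 3.11e-07), and by size of rise Chac1 ranked 4, 5 and 5 among the 18193 genes. None of the steps between treated times was called for Chac1.

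Trib3, a pseudokinase that binds ATF4 and restrains it, read 8.78, 8.89 and 8.87 untreated, 10.02, 9.89 and 9.92 at 2 h, 10.10, 10.01 and 9.94 at 4 h and 10.37, 10.33 and 10.62 at 6 h. The 2 and 4 h arrays overlapped each other, and the 6 h arrays lay above both. Trib3 rose by 1.10, 1.17 and 1.59 (SE 0.081), a fold of 2.14, 2.25 and 3.01 (adjusted p = 1.41e-05, 2.92e-06 and 2.3e-07). Its other probe set differed by nearly the same amounts, the pair spanning 1.08 to 1.10 at 2 h. From 4 to 6 h Trib3 rose by 0.42 (adjusted p = 0.0481), and the call was lost without any 1 of the 6 arrays (adjusted p up to 0.147).

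Ddit4, also known as REDD1, an inhibitor of mTORC1, read 10.41, 10.75 and 11.90 untreated, 11.21, 11.14 and 11.32 at 2 h, 12.18, 12.07 and 12.12 at 4 h and 12.09, 12.14 and 12.13 at 6 h. Untreated replicate C lay above every 2 h array and under every 4 and 6 h array. Ddit4 rose by 1.11 at 4 h and 1.10 at 6 h (SE 0.27, adjusted p = 0.00955 and 0.00883), and at 2 h it differed by 0.21 (adjusted p = 0.734). Without untreated replicate C the differences were 0.65 at 2 h (adjusted p = 0.00271), 1.55 at 4 h (adjusted p = 1.99e-06) and 1.54 at 6 h (adjusted p = 1.49e-06). The step from 2 to 4 h was 0.90 (adjusted p = 0.0301), and this call was lost without any 1 of the 6 arrays (adjusted p up to 0.089).

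Eif4ebp1, which encodes the translation repressor 4E-BP1, rose by 0.26 at 4 h and 0.30 at 6 h (SE 0.059, adjusted p = 0.00606 and 0.00238), and at 2 h it passed in the trended robust fit (0.18, adjusted p = 0.0215). Vldlr, a lipoprotein receptor, read 6.45, 6.91 and 6.97 untreated and 7.92, 7.76 and 8.42 at 6 h, with no overlap. Its rise was 0.60 at 4 h and 1.26 at 6 h (SE 0.16, adjusted p = 0.0182 and 0.000156). The 4 h call was lost without untreated replicate A or 4 h replicate A (adjusted p = 0.0655 and 0.0595), with the mean of the probe sets (adjusted p = 0.0777), and in its probe sets without a cross-hybridization suffix (0.20, adjusted p = 0.324), which gave 0.54 at 6 h (adjusted p = 0.00949).

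Sesn2 and Ppp1r15a passed at no time against no RA with the settings used throughout, and each passed under some alternatives. Sesn2, a leucine sensor that restrains mTORC1, read 10.58, 10.70 and 9.94 untreated, 11.15, 11.03 and 11.01 at 2 h, 10.97, 10.82 and 10.66 at 4 h and 10.72, 10.39 and 10.55 at 6 h. All 2 h arrays lay above all untreated and all 6 h arrays, and untreated replicate C was the lowest of the 12. The difference was 0.66 at 2 h (adjusted p = 0.0603), 0.41 at 4 h and 0.15 at 6 h, and without untreated replicate C it was 0.43, 0.18 and -0.08. Without untreated replicate B the 2 and 4 h differences passed (adjusted p = 0.025 and 0.0299), and the 2 h difference also passed with the replicate block (adjusted p = 0.0402), quantile normalization (adjusted p = 0.0444), the dim filter (adjusted p = 0.0427) and array weights (0.50, adjusted p = 0.0378). Sesn2 fell by 0.51 from 2 to 6 h (adjusted p = 0.0336), a call kept without 6 h replicate A and lost without any 1 of the other 5 arrays (adjusted p up to 0.116). Ppp1r15a encodes GADD34, the phosphatase subunit that reverses eIF2 phosphorylation, and differed by 0.21, -0.0035 and 0.19 (SE 0.068, adjusted p = 0.149, 0.979 and 0.0533). The 6 h difference passed without untreated replicate B or 6 h replicate B (adjusted p = 0.037 and 0.0375), with the dim filter (adjusted p = 0.0291) and in the trended robust fit (adjusted p = 0.0366). Between 2 and 4 h Ppp1r15a fell by 0.21 (adjusted p = 0.0434), a call lost without any 1 of the 6 arrays (adjusted p up to 0.114).

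The list held 2 secreted factors. Stc2, the glycoprotein stanniocalcin 2, read 8.14, 8.57 and 8.87 untreated, 9.60, 9.40 and 9.43 at 2 h, 9.24, 9.29 and 8.97 at 4 h and 9.75, 9.87 and 10.16 at 6 h. No treated array overlapped the untreated ones, and the 4 h arrays were the lowest of the treated ones. Stc2 rose by 0.95, 0.64 and 1.40 (SE 0.16, adjusted p = 0.00936, 0.0129 and 7.54e-05), and its calls were lost without 2 h replicate A at 2 h (adjusted p = 0.0514) and without 4 h replicate B at 4 h (adjusted p = 0.0519).

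The 3 probe sets of Stc2 differed in course. The brightest gave -0.31 from 2 to 4 h (adjusted p = 0.206), while the others gave 0.93 and 0.52, and with the mean of the probe sets Stc2 rose by 0.38 at that step (adjusted p = 0.00742). All 3 were called higher than no RA at 4 h and 6 h, by 1.32 to 2.34 at 6 h. Fgf21, an endocrine growth factor of the fasting and stress response, read 5.33, 5.52 and 5.91 untreated and 6.16, 5.89 and 6.58 at 6 h, and of these 6 values 6.16 and 6.58 lay above the median of all values (6.07). The groups overlapped, and the 6 h difference passed the test (adjusted p = 0.0118). No fold is given for Fgf21, since signal this low was not set against background.

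Of the 6 serine and one-carbon enzymes, 1 was called higher at 2 h, 2 at 4 h and 3 at 6 h, the last 3 all mitochondrial folate enzymes. Mthfd2, the mitochondrial methylenetetrahydrofolate dehydrogenase, read 10.92, 11.03 and 10.89 untreated, 11.45, 11.29 and 11.36 at 2 h, 11.65, 11.73 and 11.67 at 4 h and 11.77, 11.89 and 12.02 at 6 h. Each group lay above the one before it with no overlap. Mthfd2 rose by 0.42, 0.74 and 0.95 (SE 0.074), a fold of 1.34, 1.67 and 1.93 (adjusted p = 0.0104, 3.45e-05 and 4.41e-06). The step from 2 to 4 h was 0.32 (adjusted p = 0.00869). Without 2 h replicate A the 2 h call was lost (adjusted p = 0.0608).

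Shmt2, the mitochondrial serine hydroxymethyltransferase, read 11.68, 11.52 and 11.78 untreated, 11.66, 11.66 and 11.52 at 2 h, 11.87, 11.96 and 12.03 at 4 h and 12.18, 12.25 and 12.35 at 6 h. The 2 h arrays lay among the untreated ones, and the 4 and 6 h arrays lay above them. Shmt2 rose by 0.30 at 4 h and 0.60 at 6 h (SE 0.080, adjusted p = 0.0165 and 0.000179), and by 0.34 from 2 to 4 h (adjusted p = 0.00932). The 4 h call against no RA was lost without untreated replicate B or 4 h replicate C (adjusted p = 0.0629 and 0.0642) and in its probe sets without a cross-hybridization suffix (0.15, adjusted p = 0.266).

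Aldh1l2, mitochondrial formyltetrahydrofolate dehydrogenase, read 7.41, 7.30 and 7.49 untreated, 7.20, 7.02 and 7.16 at 2 h, 7.31, 7.47 and 7.56 at 4 h and 7.55, 7.68 and 8.17 at 6 h. The 2 h arrays all lay under the untreated ones and the 6 h arrays above them. Aldh1l2 rose by 0.40 at 6 h (adjusted p = 0.0441), and the difference at 2 h was -0.27 (adjusted p = 0.326). The 6 h call was lost without untreated replicate A, untreated B, 6 h B or 6 h C (adjusted p = 0.0854, 0.125, 0.0521 and 0.131; the difference without 6 h C was 0.21) and with quantile normalization (adjusted p = 0.0509).

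The 3 enzymes that make serine from a glycolytic intermediate, Phgdh, Psat1 and Psph, passed at no time against no RA. Their 6 h differences were 0.057 for Phgdh (SE 0.066), 0.14 for Psat1 (SE 0.060) and 0.093 for Psph (SE 0.091), with adjusted p = 0.582, 0.0943 and 0.504. Psat1 read 12.94, 12.83 and 12.99 untreated and 13.05, 13.05 and 13.09 at 6 h, without overlap, and passed at 6 h without untreated replicate C (0.18, adjusted p = 0.0356), with the mean of its probe sets (0.18, adjusted p = 0.032), with the dim filter (adjusted p = 0.0494) and in the trended robust fit (adjusted p = 0.0198).

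Of the 5 other amino acid enzymes, 1 was called higher at 2 h, none at 4 h by limma and 4 at 6 h. Higher at 4 h at an unadjusted p under 0.05 were 2, Gpt2 and Pck2 (adjusted p = 0.0543 and 0.0665), against 3231 of all 18193 genes. Pck2, mitochondrial phosphoenolpyruvate carboxykinase, read 10.04, 9.71 and 10.21 untreated, 9.86, 9.86 and 9.72 at 2 h, 10.18, 10.44 and 10.29 at 4 h and 11.05, 10.98 and 11.22 at 6 h. The 6 h arrays stood above the other 9. Pck2 rose by 1.09 at 6 h (SE 0.12, 2.13-fold, adjusted p = 4.26e-05), after -0.18 at 2 h and 0.32 at 4 h (adjusted p = 0.463 and 0.0665). The other probe set of Pck2 gave 1.02 at 4 h and 1.87 at 6 h (adjusted p = 0.00034 and 3.69e-06 over all probe sets), and the mean of both gave 0.67 at 4 h (adjusted p = 0.00142). With the brightest probe set the 4 h difference passed without untreated replicate C (0.43, adjusted p = 0.014), with array weights (0.43, adjusted p = 0.0106), with the dim filter (adjusted p = 0.0467) and in the trended robust fit (adjusted p = 0.0428). Its steps were 0.49 from 2 to 4 h (adjusted p = 0.00989) and 0.78 from 4 to 6 h (adjusted p = 0.0195). The later step lost its call without any 1 of the 6 arrays (adjusted p up to 0.105).

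Gpt2, mitochondrial alanine aminotransferase, read 9.46, 9.53 and 9.83 untreated, 10.25, 10.18 and 10.06 at 2 h, 9.95, 9.90 and 9.79 at 4 h and 9.94, 10.08 and 10.13 at 6 h. The 4 h arrays overlapped the untreated ones and the 2 and 6 h arrays did not. Gpt2 rose by 0.56 at 2 h and 0.44 at 6 h (SE 0.096, adjusted p = 0.00932 and 0.00435) and differed by 0.27 at 4 h (adjusted p = 0.0543). Its 2 h call was lost without 2 h replicate A (adjusted p = 0.0533), and at 4 h Gpt2 passed without untreated replicate C (0.38, adjusted p = 0.0039) and with the mean of probe sets, the suffix filter, the dim filter, the trended robust fit and array weights (adjusted p = 0.0175, 0.0154, 0.0357, 0.0314 and 0.00515).

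Aldh18a1, which makes the proline precursor, rose by 0.35 at 6 h (SE 0.095, adjusted p = 0.0151), a call lost without untreated replicate B or 6 h replicate C (adjusted p = 0.0602 and 0.0569). At 4 h Aldh18a1 passed without untreated replicate C (0.25, adjusted p = 0.0187) and with array weights (0.22, adjusted p = 0.0399). Cth, which makes cysteine from cystathionine, rose by 0.35 at 6 h (SE 0.11, adjusted p = 0.0273), and this call was lost without untreated replicate B, untreated C or 6 h C (adjusted p = 0.0832, 0.0662 and 0.107) and with array weights (adjusted p = 0.0664). Asns, asparagine synthetase, a much used reporter of ATF4 activity, read 12.65, 12.62 and 12.68 untreated, 12.72, 12.67 and 12.68 at 2 h, 12.72, 12.74 and 12.73 at 4 h and 12.81, 12.74 and 12.82 at 6 h. The 4 and 6 h arrays lay above the untreated ones by a small margin. Its differences were 0.039, 0.080 and 0.14 (SE 0.051, adjusted p = 0.732, 0.293 and 0.0579). The 6 h difference passed without untreated replicate C (0.15, adjusted p = 0.0356), with the mean of probe sets (0.15, adjusted p = 0.0419), with the dim filter (adjusted p = 0.0218) and in the trended robust fit (adjusted p = 0.00497), and its other probe set gave at most 0.17.

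Of the 8 amino acid transporters, 3 were called higher at 2 h, 5 at 4 h and 6 at 6 h, and 1 was called lower at 4 h. Slc7a1, the cationic amino acid carrier CAT1, read 10.70, 10.71 and 10.35 untreated, 11.29, 11.11 and 11.16 at 2 h, 11.35, 11.33 and 11.40 at 4 h and 11.48, 11.38 and 11.71 at 6 h. No treated array overlapped the untreated ones, of which replicate C was the lowest. Slc7a1 rose by 0.60, 0.77 and 0.94 (SE 0.11, adjusted p = 0.00991, 0.000273 and 5.89e-05). Its 2 h call was lost without 2 h replicate A (adjusted p = 0.0556) and with the mean of the probe sets (0.33, adjusted p = 0.0922), which gave 0.46 at 4 h (adjusted p = 0.00362).

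Slc1a4, the neutral amino acid carrier ASCT1 for serine and alanine, read 7.60, 7.79 and 7.92 untreated, 8.49, 8.23 and 8.19 at 2 h, 8.49, 8.49 and 8.37 at 4 h and 8.91, 8.84 and 9.19 at 6 h. The 6 h arrays were above all others, and the 2 and 4 h arrays lay between them and the untreated ones. Slc1a4 rose by 0.53, 0.68 and 1.21 (SE 0.11), a fold of 1.45, 1.60 and 2.31 (adjusted p = 0.0265, 0.000843 and 1.35e-05). The 2 h call was lost without untreated replicate A or any 1 of the 2 h arrays (adjusted p = 0.0504 to 0.118). From 2 to 6 h Slc1a4 rose by 0.68 (adjusted p = 0.000756).

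Slc6a9, the glycine carrier GlyT1, read 8.20, 8.04 and 8.22 untreated, 8.84, 8.62 and 8.58 at 2 h, 8.74, 8.67 and 8.62 at 4 h and 9.11, 9.09 and 9.50 at 6 h. The 2 and 4 h arrays overlapped each other, with the untreated arrays under them and the 6 h arrays above. Slc6a9 rose by 0.53, 0.52 and 1.08 (SE 0.11, adjusted p = 0.0263, 0.00386 and 2.63e-05). With 1 array left out the 2 h call was kept without untreated replicate C (otherwise adjusted p up to 0.12 without any 1 of the other 5 arrays), and was lost with the mean of the probe sets (adjusted p = 0.0586), which gave 0.34 at 4 h and 0.67 at 6 h (adjusted p = 0.0123 and 0.000145). The step from 4 to 6 h was 0.55 (adjusted p = 0.0496), and that call was lost without any 1 of the 6 arrays (adjusted p up to 0.152).

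Slc7a5 and Slc3a2 encode the light and heavy chains of the leucine carrier LAT1, and Slc7a11 the cystine carrier xCT, which uses the same heavy chain. Slc7a5 rose by 0.25 at 4 h and 0.44 at 6 h (SE 0.076, adjusted p = 0.0305 and 0.000952), and the 4 h call was lost without untreated replicate B, 4 h A or 4 h B (adjusted p = 0.113, 0.0835 and 0.104). Slc3a2 rose by 0.19 at 6 h (SE 0.054, adjusted p = 0.0224), which was lost without untreated replicate A, 6 h B or 6 h C (adjusted p = 0.0567, 0.0504 and 0.0732). Between 2 and 4 h Slc3a2 fell by 0.19 (adjusted p = 0.0219), a call kept without 4 h replicate B and lost without any 1 of the other 5 arrays (adjusted p up to 0.0854). Slc7a11 read 3.81, 3.71 and 3.48 untreated and 4.02, 4.32 and 4.28 at 6 h, all under the median of all values. It was called higher at 4 h and 6 h (adjusted p = 0.0273 and 0.00318), and no fold is given, for the same reason as for Fgf21. Its 4 h call was lost without untreated replicate C or any 1 of the 4 h arrays (adjusted p = 0.0533 to 0.0856) and with array weights (adjusted p = 0.0903).

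Slc38a2, the glutamine and neutral amino acid carrier SNAT2, moved the other way. It read 12.61, 12.81 and 12.46 untreated, 12.73, 12.72 and 12.76 at 2 h, 12.40, 12.38 and 12.24 at 4 h and 12.40, 12.38 and 12.42 at 6 h. All 4 and 6 h arrays lay under all untreated and 2 h arrays. Slc38a2 fell by 0.29 at 4 h (SE 0.082, adjusted p = 0.0216), with -0.23 at 6 h (adjusted p = 0.0571). The 4 h call was lost without untreated replicate B or 4 h replicate C (adjusted p = 0.0747 and 0.0862), and the 6 h difference passed without untreated replicate C (-0.31, adjusted p = 0.00557), with quantile normalization (adjusted p = 0.0463), the dim filter (adjusted p = 0.0354), the trended robust fit (adjusted p = 0.0206) and array weights (adjusted p = 0.00709). The 4 h difference was -0.17 with the mean of its probe sets (adjusted p = 0.0474). It fell by 0.40 from 2 to 4 h (adjusted p = 0.00427), which was -0.063 with the mean of its 3 probe sets (adjusted p = 0.489). Another of these probe sets was lower at 2 h (-0.39, adjusted p = 0.0461 over all probe sets). Slc7a3, the cationic carrier CAT3, differed by -0.0038, 0.21 and 0.24 (SE 0.12, adjusted p = 0.99, 0.243 and 0.173) and passed at 4 and 6 h only without untreated replicate A (adjusted p = 0.0399 and 0.0267).

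Across the 35 members the arrays of a group lay close together at 2 and 4 h and less so at 6 h. Measured from the untreated mean, the median member lay at 0.20, 0.21 and 0.20 on the 2 h arrays, 0.27, 0.33 and 0.30 on the 4 h arrays and 0.44, 0.47 and 0.65 on the 6 h arrays. Replicate C of the 6 h group was the highest of its group for 31 of the 35 members, against 39.2% of all genes. Without it 21 members were called higher at 6 h in place of 26. ES cell marker signal was 67207 on that array and 69565 to 69594 on the other 6 h arrays, and feeder marker signal 21139 against 19555 to 21667. Their part in the result was not tested.

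**Figure D3:**
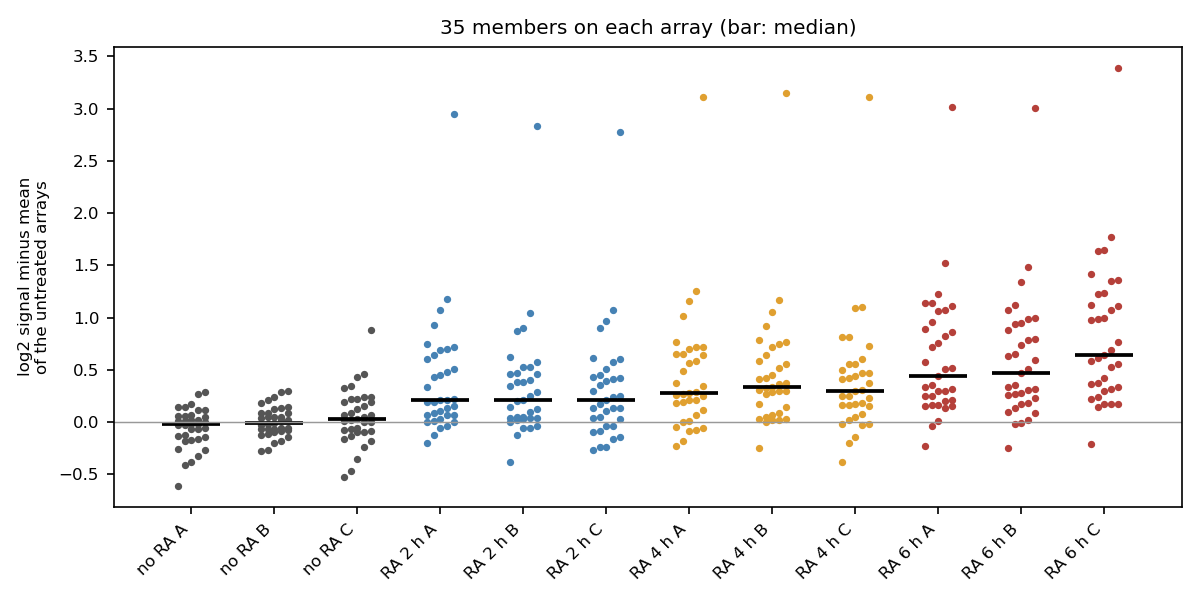
Log2 signal of each of the 35 members minus its mean over the untreated arrays, for each of the 12 arrays; points are members and bars medians. Medians rise from 0.20 to 0.21 at 2 h to 0.44, 0.47 and 0.65 at 6 h, where replicate C is the highest, and the top point on every treated array is Chac1.

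The treated times were also compared with each other. From 2 to 4 h, 4 members were called higher (12.7% of all genes), Ddit4, Mthfd2, Pck2 and Shmt2, and 4 lower (11.9%), Atf3, Ppp1r15a, Slc38a2 and Slc3a2. The median difference was 0.075, against -0.023 over all genes. The counts of lower members dropped to 1 without 2 h A, 2 h B, 2 h C, 4 h A or 4 h C and to 2 without 4 h B, and 2 were left with the replicate block. From 4 to 6 h, 3 members were called higher (0.313% of all genes), Pck2, Slc6a9 and Trib3, and none lower by limma (0.275%). An unadjusted p under 0.05 was reached by 18 members higher and 0 lower, against 1238 higher and 1147 lower of all 18193 genes. Without any 1 of the 6 arrays no member was called at this step, and the replicate block called 1.

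From 2 to 6 h, 19 members were called higher (17.1% of all genes) and 2 lower (15.1%), Sesn2 and Slc38a2, with a median of 0.34 against -0.04 over all genes. The largest of these differences were 1.27 for Pck2 (adjusted p = 1.86e-05), 0.89 for Ddit4 (adjusted p = 0.0247), 0.79 for Vldlr (adjusted p = 0.00322), 0.69 for Nupr1 (adjusted p = 0.0153), 0.68 for Slc1a4 and 0.67 for Aldh1l2 (adjusted p = 0.00274). The call of Ddit4 was kept without 2 h replicate C and lost without any 1 of the other 5 arrays (adjusted p up to 0.0731), and that of Nupr1 was lost without 2 h replicate C or 6 h replicate C (adjusted p = 0.0567 and 0.0621). Atf4 itself passed at none of the 3 steps between treated times. Without 6 h replicate C, 12 members were called higher from 2 to 6 h, and the count of lower members was 1 without that array, without 6 h replicate B or without any 1 of the 2 h arrays.

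Genes of neighbouring pathways were counted from lists of the same kind, and some genes stand in more than 1 list. Their counts are to be read against all genes, of which 1.50% were called higher and 1.19% lower at 2 h, 12.8% and 14.1% at 4 h, and 15.0% and 14.7% at 6 h. At 6 h, 8 of 20 aminoacyl-tRNA synthetases, which charge tRNAs and include known ATF4 targets, were called higher and 1 lower. Cars rose by 0.49 (adjusted p = 7e-05), Wars by 0.42 (adjusted p = 0.000908) and Aars by 0.41 (adjusted p = 0.000194), and Qars fell by 0.17 (adjusted p = 0.0477). At 2 h none of the 20 was called by limma. At an unadjusted p under 0.05, 1 was higher and 1 lower, against 1491 higher and 1679 lower of all 18193 genes. Further ATF4 targets numbered 24, with 4 called higher at 2 h and 9 higher and 6 lower at 6 h. Herpud1, a gene of ER-associated degradation, rose by 1.55 at 2 h (adjusted p = 4.58e-06) and 1.40 at 6 h, the angiogenic factor gene Vegfa by 0.90 (adjusted p = 0.022) and 1.50, and the AP-1 repressor gene Jdp2 by 0.92 (adjusted p = 0.0233) and 1.33, whereas Ndrg1 fell by 1.55 at 6 h (adjusted p = 2.06e-06).

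Upstream of ATF4, 6 of 16 genes of eIF2 kinases and eIF2 control were called higher at 6 h and 3 lower. Eif2ak1, the haem-regulated kinase, rose by 0.49 (adjusted p = 0.00192), and Eif2ak4, the amino acid sensor GCN2, fell by 0.41 (adjusted p = 0.0156). The kinase gene Eif2ak2 also fell, by 0.34 (adjusted p = 0.0152), and Eif2b4, not a kinase gene, rose by 0.47 (adjusted p = 0.000125). Of 25 genes of the unfolded protein response of the ER, 2 were called higher at 6 h, Xbp1 by 1.05 and Syvn1 by 0.43, and 4 lower, among them Sdf2l1 by -0.64 (adjusted p = 0.000974). For the unfolded protein response genes, neither the share higher nor the share lower lies much above that of all genes. For the genes of eIF2 kinases and eIF2 control, the share higher (37.5%) lies well above that of all genes. Their share lower was 18.8%, against 14.7% of all genes, and their median difference 0.052, against -0.014 over all genes. Of the other serine, glycine and one-carbon enzymes 5 of 22 were higher at 6 h and 6 lower (22.7% and 27.3%), and of the other amino acid transporters 7 of 31 were higher and 6 lower (22.6% and 19.4%). Among these, the glycine-cleavage gene Gldc fell by 0.48 (adjusted p = 0.00151), Slc7a7 rose by 1.12 (adjusted p = 5e-05) and the taurine carrier Slc6a6 fell by 0.89 (adjusted p = 5.13e-06). Of 17 NRF2 targets and glutathione genes, 2 were higher and 6 lower at 6 h, including Gclm by -0.74 and Gclc by -0.50, which encode the subunits of the enzyme that starts glutathione synthesis. Of 18 p53 targets, 8 were higher at 4 h, and 2 higher and 4 lower at 6 h (11.1% and 22.2%). No test of any list against another was made.

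**Figure D4:**
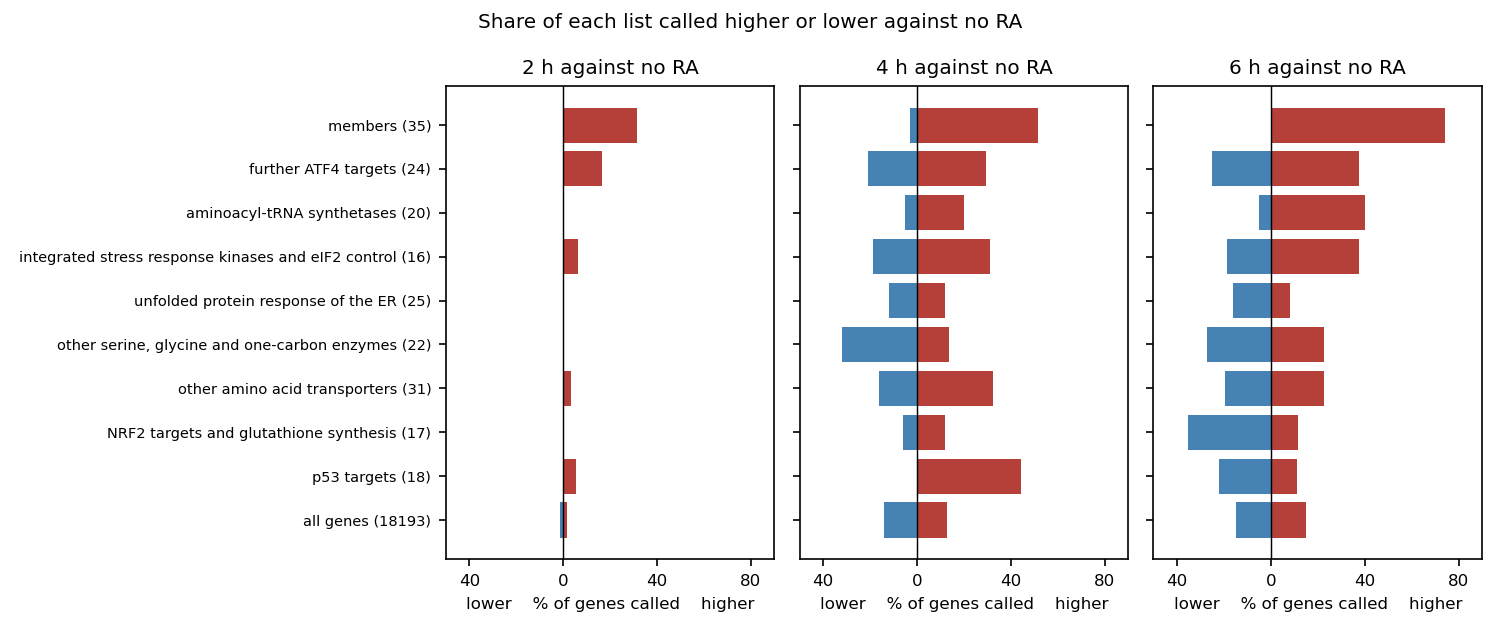
Share (%) of measured genes called higher (right, red) or lower (left, blue) than no RA at 2, 4 and 6 h, for the members, 8 neighbouring gene lists and all 18193 genes; the number measured stands in brackets and bars start at 0. The members' share higher is 31.4, 51.4 and 74.3% at the 3 times, against 1.50, 12.8 and 15.0% of all genes.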

How the data were processed

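RNA of 12 samples was measured on Affymetrix mouse arrays after biotin labelling of 200 ng of RNA. The values deposited by the authors are log2 signal of 45101 probe sets; per the submitters' processing notes limma 3.4.3 was used, and the normalization method is not given in the sources used here. No further normalization was applied. Array medians were 6.05 to 6.10. Control probe sets (64) and probe sets of several genes (932) or none (9160) were left out, genes were named by the platform's annotation, and the probe set with the highest mean was kept for each of 18193 genes. Groups from the labels were compared by lmFit and eBayes of limma 3.58.1 under R 4.3.3 (8 degrees of freedom from the residuals and 3.78 from the prior) and Benjamini-Hochberg adjustment, called at 0.05. The members and lists were chosen with earlier results of these data known. Every member is named, and of other lists up to 3 called genes a direction at each time, of which some are given. Members had 78 probe sets. Promoters are RefSeq's for GRCm38.p6. The fit was tested on simulated data. Against no RA it recovered 69 to 72% of simulated log2 changes of 0.5 and 95 to 97% of those of 1. A member that was not called may thus still have changed. Alternatives tried were median centring, quantile normalization, a mean over a gene's probe sets, probe sets without a cross-hybridization suffix, adjustment over all probe sets, a filter on dim genes, a trended robust variance, array weights, the replicate letter as a block, adjusted p under 0.01, fits of the compared groups alone and leaving out each array. The number of arrays limits the precision. Plots were made in Python 3.11.15 (matplotlib 3.10.9).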

Additional observations from a re-analysis of the deposited data

How the results depend on the processing

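Counts of members called higher against no RA kept within 1.5 times at 4 h and 6 h under every alternative and every left-out array (15 to 22 and 21 to 28 without 1 array). At 2 h the count of 11 was 7 at an adjusted p under 0.01, 3 in the fit of the compared groups alone and 4 to 11 without 1 array. The lower count was 0 at an adjusted p under 0.01 and with the compared groups alone at 4 h (0 to 1 without 1 array), and 1 with quantile normalization, the dim filter, the trended robust fit and array weights at 6 h (0 to 1 without 1 array). From 2 to 4 h the higher count of 4 was 9 with array weights and 12 with the compared groups alone; the lower count of 4 was 2 adjusted over all probe sets, 2 with the replicate block and 1 at an adjusted p under 0.01 (1 to 2 without 1 array). From 4 to 6 h the count of 3 was 1 with the suffix filter, over all probe sets and with the replicate block, 7 with the dim filter, 8 with the trended robust fit, 10 with array weights, 0 at an adjusted p under 0.01 and 0 without any 1 array. From 2 to 6 h, 11 were higher and 1 lower at an adjusted p under 0.01 (12 to 15 higher and 1 to 2 lower without 1 array), and 0 lower with the mean of probe sets. Over all genes, the 2 h count of 488 was 801 with array weights, 195 at an adjusted p under 0.01, 134 with the compared groups alone and 219 to 734 without 1 array; the 4 h count was 2994 at an adjusted p under 0.01 and 3081 with the compared groups alone, and the 6 h count 3478 at an adjusted p under 0.01. For all genes between treated times, an adjusted p under 0.01 called 2367 from 2 to 4 h, 7 from 4 to 6 h and 3619 from 2 to 6 h. The 4 to 6 h count of 107 over all genes was 36 with the mean of probe sets, 41 over all probe sets, 236 with the dim filter, 207 with the trended robust fit, 692 with array weights, 251 with the compared groups alone and 5 to 20 without 1 array. Stc2 from 2 to 4 h changed sign, from -0.31 to 0.38 with the mean of probe sets, where its probe sets differ. For the other shifts the cause was not tested.

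Same-lettered arrays correlated in their deviations at -0.128 to 0.315 and over 0.1 in 4 of 18 pairs. Arrays of different letters did so at -0.304 to 0.232 and over 0.1 in 5 of 36 pairs. The labels do not say that a letter marks a shared culture or day, so the letters were not taken to pair the samples. With the replicate block 11, 18 and 26 members were called higher against no RA at 2, 4 and 6 h, the same counts as without it, but at 2 h Cebpb lost its call (adjusted p = 0.0726) and Sesn2 gained one (0.66, adjusted p = 0.0402). The dim filter left out Fgf21 and Slc7a11, and the suffix filter left 29 members. Signal of Fgf21 and Slc7a11 near or under the median of all values limits what can be said of them, and 3 arrays a group limit every value. Of members called in each comparison, 4 of 11 at 2 h, 13 of 19 at 4 h and 21 of 26 at 6 h kept their call without any 1 array.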
